A study of Mus musculus with 8 samples.

Results

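The sterol and fatty acid synthesis genes comprise 38 mouse genes that build cholesterol, build, elongate and desaturate fatty acids, store them as glycerolipid, or control these steps. They were chosen by gene symbol, with earlier results of these data known, and no cutoff on a measured value was used. On the 6 tumour arrays they are read by 87 of 45101 probe sets, and all 38 were found among 18194 genes. On the 2 liver arrays they are read by 72 of 22690 probe sets and make up 37 of 12394 genes, and no probe set there carries the symbol Insig1.

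All samples came from p53-/- mice on a C57BL/6J background, so no comparison here varies p53. The first data set held 6 hepatocellular carcinomas from HBs transgenic mice aged 12 to 15 months, 3 from mTERC+ mice and 3 from mTERC- mice. mTERC encodes the RNA template of telomerase, and HBs is the usual short name of the hepatitis B surface antigen. The second data set held liver RNA taken 48 h after intravenous infection with 1 of 2 adenoviruses, Ad TRF2DBDM or Ad GFP. TRF2DBDM is a truncated form of the telomere protein TRF2 that uncaps telomeres, and GFP is a fluorescent protein used as the control. Each tumour was hybridised alone, whereas each infected-liver array carried RNA pooled from 3 mice, so that pair has no replicates. The promoter that drives the HBs transgene is not given in the sources used here. The labels call every sample hepatocytes, while the series design describes tumour and liver RNA.

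Cholesterol is made from acetyl-CoA through the mevalonate steps to farnesyl diphosphate, which is joined to squalene and closed and trimmed to the sterol. Fatty acids are made from the same acetyl-CoA by acetyl-CoA carboxylase and fatty acid synthase, and are then elongated, desaturated and esterified. The SREBP transcription factors, encoded by Srebf1 and Srebf2, are released from the endoplasmic reticulum when membrane sterol is low and bind promoters of both pathways, often beside NF-Y and Sp1. Hepatocytes are a main site of both pathways, and lipogenic genes there also respond to feeding, through insulin and through the carbohydrate sensor ChREBP, encoded by Mlxipl.

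Promoter sequence was examined because these genes are known to share regulators. RefSeq promoters on the GRCm38.p6 build were matched for 29 of the 38 genes, and the 250 bases before each annotated start were searched on both strands. The NF-Y pentamer CCAAT occurred in 25 of these 29 genes (86.2%), against 39.4% of 14453 genes on the tumour array. Some genes have several promoters. Counted by promoter, the pentamer was in 26 of 39 member promoters and in 11120 of all 32851 promoters (33.8%). The Sp1 hexamer GGGCGG occurred in 22 of 29 (75.9%), against 53.4% of the array's genes. The E-box CACGTG occurred in 6 of 29 (20.7%), against 8.73% of the array's genes. The SREBP element TCACNCCAC occurred in Hmgcs1 and Mlxipl, 2 of 29 (6.9%), against 1.27% of the array's genes. The LXR direct repeat with 4 spacer bases was in none of the 39 member promoters and in 0.0152% of all promoters. These matches describe letters in a window and are not measured binding sites.

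6 windows are printed because their genes are described below: Hmgcs1 opens the mevalonate steps and holds the SREBP element, Sc5d, Ebp and Srebf2 had the smallest unadjusted p-values on the sterol side among matched genes, and Fads3 and Thrsp were far apart between the infected livers. Each runs 5′ to 3′ on the gene's strand, with CCAAT on either strand and the SREBP element in capitals. The positions are chr13:119690101-119690350 on the plus strand for Hmgcs1, chr9:42264301-42264550 on the minus strand for Sc5d, and chrX:8193513-8193762 on the minus strand for Ebp. Those of the others are chr15:82147019-82147268 on the plus strand for Srebf2, chr19:10041298-10041547 on the plus strand for Fads3, and chr7:97417551-97417800 on the minus strand for Thrsp.
Hmgcs1: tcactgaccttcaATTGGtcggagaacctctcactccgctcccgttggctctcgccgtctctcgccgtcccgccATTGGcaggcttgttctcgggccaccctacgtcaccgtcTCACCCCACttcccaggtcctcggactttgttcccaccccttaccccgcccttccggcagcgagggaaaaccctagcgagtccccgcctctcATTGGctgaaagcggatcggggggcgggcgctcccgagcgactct
Sc5d: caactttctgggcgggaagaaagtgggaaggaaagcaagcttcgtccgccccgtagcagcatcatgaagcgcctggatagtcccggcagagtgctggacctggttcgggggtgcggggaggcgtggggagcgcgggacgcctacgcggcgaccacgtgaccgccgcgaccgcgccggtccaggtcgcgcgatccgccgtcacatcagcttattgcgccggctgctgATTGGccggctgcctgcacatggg
Ebp: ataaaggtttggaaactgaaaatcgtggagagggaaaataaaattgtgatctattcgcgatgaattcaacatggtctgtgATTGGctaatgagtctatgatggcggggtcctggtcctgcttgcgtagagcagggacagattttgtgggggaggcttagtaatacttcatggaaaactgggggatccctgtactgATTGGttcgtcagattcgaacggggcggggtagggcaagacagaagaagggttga
Srebf2: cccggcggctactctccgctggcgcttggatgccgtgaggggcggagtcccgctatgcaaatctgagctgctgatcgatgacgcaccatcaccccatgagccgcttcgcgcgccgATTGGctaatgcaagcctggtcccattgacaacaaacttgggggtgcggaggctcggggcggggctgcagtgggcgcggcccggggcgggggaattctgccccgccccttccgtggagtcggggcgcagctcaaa
Fads3: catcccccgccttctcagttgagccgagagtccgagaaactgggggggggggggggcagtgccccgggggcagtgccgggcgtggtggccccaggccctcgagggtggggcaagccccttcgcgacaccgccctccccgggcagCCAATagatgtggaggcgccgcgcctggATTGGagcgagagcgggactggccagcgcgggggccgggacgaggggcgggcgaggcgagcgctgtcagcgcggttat
Thrsp: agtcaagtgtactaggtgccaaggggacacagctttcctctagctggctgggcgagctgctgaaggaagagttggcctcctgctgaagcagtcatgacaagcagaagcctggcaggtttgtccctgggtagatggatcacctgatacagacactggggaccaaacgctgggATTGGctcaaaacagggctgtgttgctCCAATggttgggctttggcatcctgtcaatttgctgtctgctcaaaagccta
The Hmgcs1 window held 3 CCAAT pentamers, and those of Ebp, Fads3 and Thrsp held 2 each. Sc5d and Srebf2 held 1 each.

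Signals are deposited MAS5 intensities, and each array's mean without the lowest and highest 2% of probe sets was close to 150. A gene was read by its single-symbol probe set with the highest mean. The median signal was 54.5 to 59.4 on 5 tumour arrays and 75.1 on that of mTERC- tumour 2. That array also had a 3′ to 5′ ratio of 13.8 for Gapdh, against 0.983 to 1.18 on the other tumour arrays, a sign of shortened RNA or cDNA. The 18S control signal lay in 2 ranges, 319 to 349 for mTERC- tumours 2 and 3, and 11010 to 27810 for the remaining tumours. Xist, the RNA of the inactive X chromosome, read 920.5 in mTERC- tumour 1, 9.6 to 68.4 in the other tumours, and 3607 and 2308 in the livers. All 7 measured hepatocyte markers were present in every tumour, with summed signals of 135387 to 206776, and adipocyte markers summed to 338 to 1023. Of the adipocyte list, Pck1 read 101.6 to 754.9, Lipe and Cidec read 16.9 to 197.4, and Adipoq, Lep and Retn read 4 to 69.8. Summed neutrophil markers were 343 to 2963 in mTERC+ tumours and 9005 to 21843 in mTERC- tumours, and summed macrophage markers were 10051 to 40138 and 8666 to 14465. In RNA from whole tissue, fewer cells of a type and less RNA per cell cannot be told apart.

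The first comparison asked how tumours of mice without the telomerase RNA differed from those of mice with it. None of the 38 lipid genes passed the test. Limma on log2(signal + 32), adjusted by Benjamini-Hochberg over 11980 genes, called 1 gene in all (0.00835%). All 38 members passed the filter on level. The smallest adjusted p among them was 0.906, for Scd1. At an unadjusted p below 0.05 there were 5 members, Scd1, Sc5d, Acacb, Ebp and Srebf2, or 5 of 38 against 5.04% of all genes. Each of the 5 had its lower mean in mTERC- tumours, a direction that held for 2.45% of all genes at that p, with 2.59% in the other. The count of 5 was 1 with no variance trend, with averaged probe sets, with the 18S level as a block, or without mTERC+ tumour 2 or 3. It was 3 with a filter at percentile 75, and 9 of 74 probe sets when each was tested singly. The share of all genes at that p was not counted under these alternatives, so a change particular to the members cannot be read from them. In 6 members (15.8%), namely Fdps, Fdft1, Sqle, Sc5d, Srebf2 and Scd1, every mTERC- tumour was below every mTERC+ tumour, against 4.39% of all genes. In no member was every mTERC- tumour above, against 5.75% of all genes. The median difference over the members, mTERC- minus mTERC+, was -0.088 on the log2 scale, against 0.017 over all genes. With 22 lower and 16 higher means, the members as a whole did not stand on 1 side, against 48.6% lower and 51.4% higher over all genes.

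**Figure D1:**
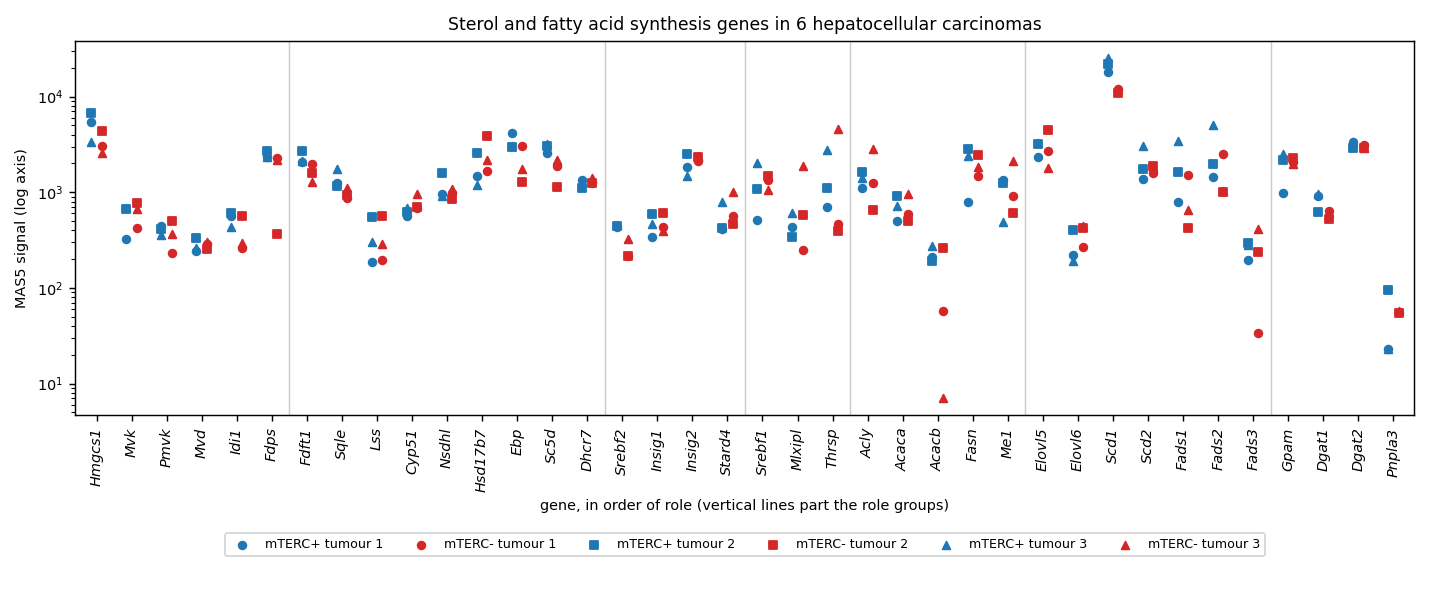
MAS5 signal of each of the 38 genes (log axis) in each of 6 hepatocellular carcinomas, blue for mTERC+ and red for mTERC-, 1 point per tumour, with genes in order of role. In Scd1, Srebf2 and Sc5d the 3 red points lie below the 3 blue ones, whereas in Thrsp and Mlxipl the points of both groups intermix.

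The mevalonate steps turn acetyl-CoA units into farnesyl diphosphate. Hmgcs1, the cytosolic synthase that makes HMG-CoA, read 5472, 6729 and 3363 in mTERC+ tumours 1 to 3 and 3066, 4409 and 2543 in mTERC- tumours 1 to 3. The groups overlapped, with the second tumour of each the highest of its group. Their difference was -0.61 ± 0.36 (SE, n = 3 each). A second Hmgcs1 probe set read 1257, 1300 and 816 against 573, 246 and 569, without overlap, a difference of -1.28. Further Hmgcs1 probe sets above the filter overlapped, with differences of -0.77 and -0.50. Fdps, farnesyl diphosphate synthase, read 2312, 2678 and 2317 against 2286, 369 and 2173. The groups were apart by only a small margin except for mTERC- tumour 2, the array with the high Gapdh ratio. Its difference was -0.95 ± 0.53 with all tumours and -0.12 without mTERC- tumour 2. The part of the Gapdh ratio in this value was not tested. The other 4 genes, Mvk, Pmvk and Mvd, which phosphorylate and decarboxylate mevalonate, and the isomerase Idi1, overlapped between groups, with differences from -0.54 to 0.17. Over the 6 genes the median was -0.36, and 4 of 6 had a lower mean in mTERC- tumours.

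The squalene and sterol steps held 3 of the 6 members without overlap. Fdft1, squalene synthase, read 2091, 2691 and 2111 in mTERC+ tumours and 1984, 1588 and 1286 in mTERC- tumours. All 3 mTERC- tumours were lower, the first by a small margin. A second Fdft1 probe set read 2426, 1425 and 2000 against 1257, 466 and 1009, again without overlap. The printed Fdft1 probe set carries the _x_at suffix, which marks probes that may also match other transcripts. Sqle, squalene epoxidase, read 1262, 1156 and 1769 against 872, 934 and 1108, so its highest mTERC- tumour lay close under its lowest mTERC+ tumour. Its difference was -0.49 ± 0.33 (SE, n = 3 each), and -0.31 without mTERC+ tumour 3.

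Ebp and Sc5d act late in the sterol ring, moving and inserting a double bond. Ebp read 4177, 2956 and 3017 in mTERC+ tumours and 3035, 1280 and 1732 in mTERC- tumours. The groups overlapped through mTERC- tumour 1, and the difference was -0.81 ± 0.36 (limma, unadjusted p = 0.042, adjusted p = 0.953). It was -0.54 without mTERC- tumour 2, and -0.14 with the 18S level as a block, a fit in which mTERC- tumours 2 and 3 no longer bear on the difference. The same block gave -0.20 for Fdft1. Sc5d read 2586, 3011 and 3210 against 1882, 1142 and 2170. All 3 mTERC- tumours were lower, with a difference of -0.79 ± 0.34 (limma, unadjusted p = 0.033, adjusted p = 0.953). Of its 2 other probe sets above the level filter, both dim, neither had a lower mean in mTERC- tumours, with differences of 0.09 and 0.87. On the second of these every mTERC- tumour was higher, at 106, 78.7 and 80.7 against 5.3, 41.8 and 70.9, a separation opposite to that of the brightest probe set. Without mTERC- tumour 2 the Sc5d difference was -0.53. Lss, Cyp51, Nsdhl, Hsd17b7 and Dhcr7, the cyclase and 4 of the enzymes that trim lanosterol, overlapped, with differences from -0.20 to 0.53. The 0.53 was that of Hsd17b7, also read by an _x_at probe set. Its other probe sets above the filter gave -0.26 and 0.20. Dhcr7, which makes cholesterol from its direct precursor, stayed between 1097 and 1400 in all 6 tumours. Over the 9 genes the median was -0.20.

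Srebf2 encodes the SREBP form that mainly drives sterol genes. Its signal was 429, 441 and 454 in mTERC+ tumours and 215, 214 and 323 in mTERC- tumours. The mTERC+ tumours lay close together and all mTERC- tumours were lower, by -0.77 ± 0.35 (limma, unadjusted p = 0.045, adjusted p = 0.953). A second Srebf2 probe set read 212, 258 and 151 against 159, 99.6 and 168, a smaller difference of -0.45 with overlapping groups. Insig1 and Insig2, which hold SREBPs in the endoplasmic reticulum, and Stard4, a sterol carrier, overlapped, with differences from 0.04 to 0.30. The 3 probe sets of Insig2 disagreed in sign, with differences of 0.25, -0.47 and 0.04.

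Among the lipogenic regulators the tumours differed more within a group than between groups. Thrsp, a nuclear protein of lipogenic tissue, read 702, 1106 and 2750 in mTERC+ tumours and 460, 397 and 4635 in mTERC- tumours. The third tumour of each group was high and the other 4 were low, an 11.7-fold range over 6 tumours. A second Thrsp probe set showed the same tumours high, at 1509 and 2797 against 273 to 727. Mlxipl read 433, 339 and 605 against 250, 572 and 1878, with mTERC- tumour 3 the highest. Its difference was 0.52 ± 0.54 with all tumours and -0.22 without mTERC- tumour 3, so its sign rested on that tumour. Srebf1, whose SREBP-1c product drives lipogenic genes, read 507, 1083 and 2037 against 1341, 1481 and 1047, with full overlap.

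The 5 genes of fatty acid synthesis proper all overlapped between the groups. Fasn, fatty acid synthase, read 792, 2848 and 2365 in mTERC+ tumours and 1495, 2434 and 1837 in mTERC- tumours, with the mTERC- values inside the mTERC+ range. Acly, which makes cytosolic acetyl-CoA from citrate, ranged from 660 to 2813, both ends in mTERC- tumours. Me1, a source of NADPH, ranged from 486 in mTERC+ tumour 3 to 2121 in mTERC- tumour 3. Acaca, the cytosolic carboxylase, ranged from 504 to 959. Acacb, the mitochondrial carboxylase whose malonyl-CoA restrains fatty acid oxidation, read 212, 189 and 274 against 57.6, 260 and 7.1. mTERC- tumours 1 and 3 were low while mTERC- tumour 2 lay within the mTERC+ range. The difference was -1.34 ± 0.59 (limma, unadjusted p = 0.038, adjusted p = 0.953), with -0.65 without mTERC- tumour 3 and -2.11 without mTERC- tumour 2. The low signals lie near or under the filter level of 47.4, and the difference was -2.16 with a pseudocount of 1 and -0.72 with a pseudocount larger than the 32 used.

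Scd1, the stearoyl-CoA desaturase that makes oleate, had the smallest p of all members. Its signal was 17888, 21851 and 25464 in mTERC+ tumours, a mean of 21734 ± 3789 (SD, n = 3), and 12090, 10775 and 11857 in mTERC- tumours, a mean of 11574 ± 701 (SD, n = 3). No mTERC- tumour reached the lowest mTERC+ tumour, and the mTERC- mean was 0.533 of the mTERC+ mean. The log2 difference was -0.89 ± 0.30 (limma, unadjusted p = 0.010, adjusted p = 0.906). A second Scd1 probe set read 1350, 1554 and 1712 against 662, 591 and 1465, with a like difference of -0.85, though there mTERC- tumour 3 overlapped. Leaving out each tumour in turn gave -1.03 to -0.77. Scd2, its paralog that lies beside it on chromosome 19 with Scd4 as the only protein-coding gene between them, read 1383, 1764 and 3033 against 1590, 1860 and 1833, and the groups overlapped.

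Fads1, Fads2 and Fads3 lie next to each other on chromosome 19 with no protein-coding gene between them. Fads1 and Fads2 are the delta-5 and delta-6 desaturases of polyunsaturated fatty acids. Fads1 read 791, 1611 and 3410 in mTERC+ tumours and 1523, 427 and 645 in mTERC- tumours, a difference of -1.09 ± 0.52, with -0.57 without mTERC+ tumour 3 and -0.70 without mTERC- tumour 2. Fads2 read 1427, 1963 and 5070 against 2514, 1001 and 1039, a difference of -0.80 ± 0.47. On these probe sets both were highest in mTERC+ tumour 3 and lower in mTERC- tumours 2 and 3 than in any mTERC+ tumour. Both overlapped through mTERC- tumour 1. A second Fads2 probe set read 441.7, 874.4 and 2548 against 802.8, 221.5 and 660.9. There mTERC- tumour 3 lay above mTERC+ tumour 1. The tumours mTERC- 2 and 3 are also the ones with the low 18S signal. With the 18S level as a block, the Fads1 difference was -0.10, and the part of the 18S level was not tested further. Fads3 followed another order, at 198, 295 and 282 against 33.7, 235 and 410. Of the elongases, Elovl5 ranged from 1804 to 4468 and Elovl6 from 193 to 443, both with overlap. The Elovl6 difference was 0.46 on this probe set and -0.69 on a second one, which also overlapped. Over the 7 elongases and desaturases 6 had a lower mean in mTERC- tumours and the median was -0.53, -0.08 without mTERC- tumour 1.

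The 4 glycerolipid genes all overlapped between the groups. Dgat2, an acyltransferase that completes triglyceride, stayed between 2868 and 3365 in all 6 tumours, the smallest spread of any member (SD 0.107 on the log2 scale, against a median of 0.544 over all genes). Dgat1, the other enzyme of that step, read 924, 628 and 969 in mTERC+ tumours and 642, 527 and 610 in mTERC- tumours, a difference of -0.46 ± 0.34 with overlap through mTERC+ tumour 2. Gpam, which starts glycerolipid assembly in mitochondria, ranged from 983 to 2520. Pnpla3, a lipid-droplet protein, ranged from 22.8 to 95.7, near the filter level of 47.4 and read at low precision.

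**Figure D2:**
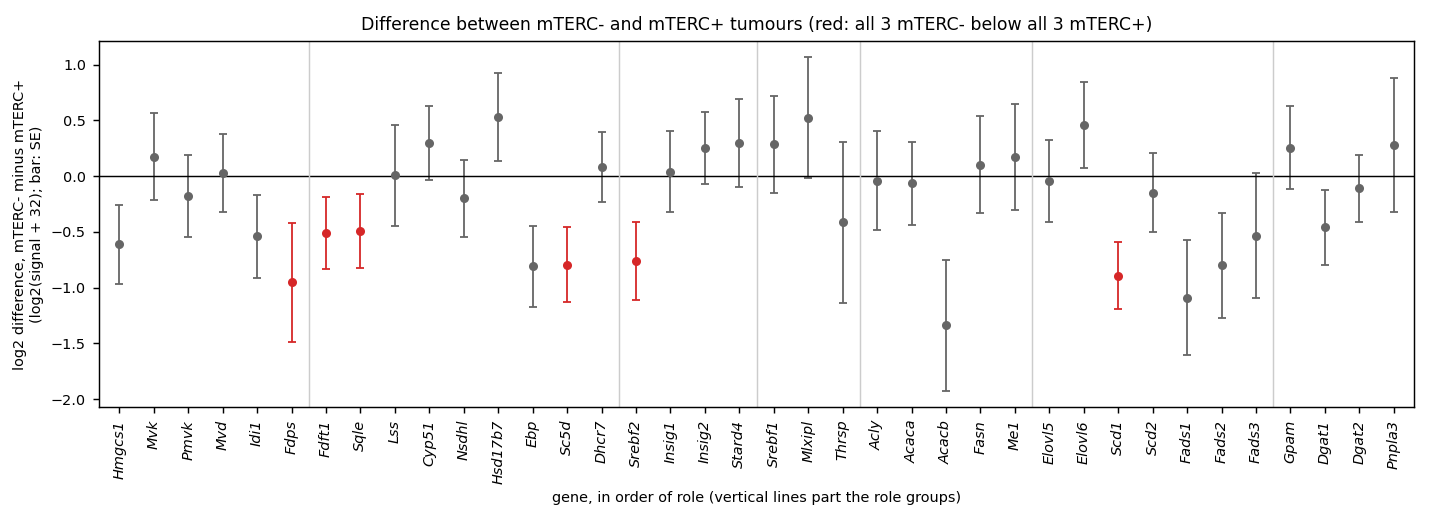
Difference between the mTERC- and mTERC+ tumours on the log2(signal + 32) scale for each of the 38 genes (points, n = 3 each), with bars for the standard error of the limma fit and red for genes in which all 3 mTERC- tumours were lower. The 6 red genes lie between -0.95 and -0.49, and Acacb, in grey, lies farthest from 0 at -1.34, a size that changes with the pseudocount.

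The genes without overlap were 5 of 19 on the sterol side (26.3%) and 1 of 19 on the fatty acid side (5.26%), against 10.1% of all genes in either direction. Averaged over the genes of a role after centring each gene on its mean, the mevalonate steps stood at 0.08, 0.39 and 0.04 in mTERC+ tumours and at -0.27, -0.16 and -0.09 in mTERC- tumours. The squalene and sterol steps stood at -0.02, 0.28 and 0.06 against -0.14, -0.11 and -0.06. In both roles all mTERC- tumours were lower, by margins no wider than the range within mTERC+ tumours. The elongases and desaturases stood at -0.26, 0.28 and 0.63 against -0.26, -0.21 and -0.18, with mTERC+ tumour 1 at the level of the mTERC- tumours. The lipogenic regulators stood at -0.70, -0.24 and 0.74 against -0.68, -0.33 and 1.21, with the third tumour of each group high.

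**Figure D3:**
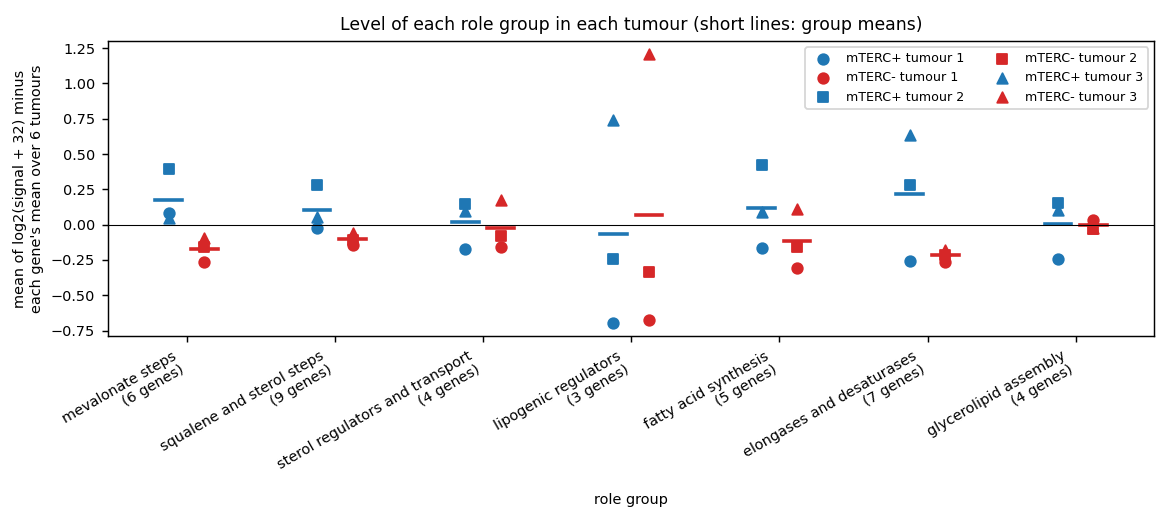
Mean centred log2(signal + 32) of the genes of each of 7 roles in each tumour, blue for mTERC+ and red for mTERC-, with short lines at the group means. The red points of the mevalonate and sterol steps lie below the blue ones, while the lipogenic regulators spread from -0.70 to 1.21 with both groups mixed.

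Single tumours also stood out within the family. mTERC+ tumour 3 held the highest signal of 11 members (28.9%), against 15.9% of all genes, and mTERC- tumour 3 that of 10 (26.3%), against 15.3%. mTERC- tumour 1 held the highest of none, against 13.8%. mTERC+ tumour 1 held the lowest signal of 11 members (28.9%), against 16.6% of all genes. mTERC- tumour 2 also held the lowest of 11, nearer to its 22.3% of all genes. The members' median SD over the 6 tumours was 0.478, against 0.544 over all genes. Where a member had at least 2 probe sets above the filter, the probe sets had the same sign of difference in 16 of 25 genes and disagreed in 9.

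Other genes of these pathways, listed apart from the 38, gave the following counts, with none called in any list. Of 14 further genes of sterol synthesis, uptake and SREBP processing, 12 had a lower mean in mTERC- tumours, with a median of -0.39. Npc2, which carries cholesterol out of lysosomes, read 3471, 3348 and 3228 against 2878, 1068 and 1644, without overlap, a difference of -0.95 ± 0.37 (limma, adjusted p = 0.953). Of 9 genes for the oxysterol receptor LXR and its targets, 7 had lower means and the median was -0.40. Pltp, a phospholipid transfer protein, read 586, 407 and 481 against 353, 170 and 223, also without overlap, and Nr1h3, LXR alpha itself, had a difference of -0.93 ± 0.40 with overlap. Macrophages also express Npc2, Pltp and Nr1h3, and all 8 macrophage markers had lower means in mTERC- tumours, with a median of -1.17. The part of macrophages in these values was not tested. Of 18 genes of fatty acid supply, carbohydrate response and NADPH, 7 had a lower and 11 a higher mean, with a median of 0.12. Of 26 further glycerolipid and droplet genes, 14 had a lower and 12 a higher mean, with a median of -0.04. Cideb, a droplet protein of hepatocytes, read 6041, 3811 and 4070 against 3064, 999 and 1761, without overlap, a difference of -1.35 ± 0.40 (limma, adjusted p = 0.906).

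The second comparison set liver infected with Ad TRF2DBDM beside liver infected with Ad GFP. The desaturases Scd1 and Fads3 had the widest differences of the family, in opposite directions, and the sterol genes gave differences of both signs. With 1 pooled array each there was no replicate check and no test. A gene was compared where it reached the array median on either array, and 35 of 37 members did so, all but Acaca and Pnpla3. At least 2-fold higher with TRF2DBDM were Scd1 and Thrsp, 2 of 35 (5.71%), against 4.62% of 7789 genes compared. At least 2-fold lower was Fads3, against 2.9% of all genes. In either direction 3 of 35 members (8.57%) reached 2-fold, against 7.52% of all genes. These shares lie near the background. The members' median log2 ratio was 0.23 and that of all genes 0.02, with 20 members higher and 15 lower, and 52% of all genes higher. Ratios are on the log2(signal + 32) scale, which understates those of dim genes.

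Scd1 read 838 with TRF2DBDM and 199 with GFP, a log2 ratio of 1.91, or 3.77-fold. It ranked 64 from the highest of 7789 genes. Its second probe set also read higher, at 143 against 36.9. Fads3, a desaturase of sphingoid bases, read 7.4 with TRF2DBDM and 444 with GFP, a log2 ratio of -3.60. The TRF2DBDM signal lay far under that array's median of 52.5, at percentile 14.6, and the gene was compared only through the GFP array, so the ratio has no firm size. It was -5.73 with a pseudocount of 1, -2.08 with the larger pseudocount and -2.07 with averaged probe sets. A second Fads3 probe set on this array read 2.2 against 17.7, the same direction at signals under the array median on both arrays.

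Next to Fads3 on the chromosome, Fads1 and Fads2 went the other way. Fads1 read 808 with TRF2DBDM and 483 with GFP, and Fads2 read 1318.5 against 685.9, log2 ratios of 0.71 and 0.91. A second Fads2 probe set read 583 against 297. Elovl5, an elongase of polyunsaturated fatty acids, read 1235 against 617, and Elovl6, an elongase of saturated ones, 81.3 against 40.6. Scd2 read 51.0 against 56.2 and so hardly differed. Over the 7 elongases and desaturases 5 were higher with TRF2DBDM, with a median of 0.71.

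All 3 lipogenic regulators read higher with TRF2DBDM. Thrsp read 392 against 153, a 2.29-fold ratio, but its second probe set read 152 against 136. Mlxipl read 339 against 202 and Srebf1 418 against 353. Among 4 fatty acid synthesis genes 3 were higher, namely Acly at 664 against 399, Me1 at 737 against 517 and Fasn at 307 against 214. Acacb read 80.6 against 102.4. The median over these 4 genes was 0.47.

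The sterol genes did not lean to 1 side. The median log2 ratio was 0.06 over the mevalonate steps and -0.005 over the squalene and sterol steps. Higher with TRF2DBDM were Sc5d at 954 against 466, Ebp at 2358 against 1377, Dhcr7 at 746 against 464 and Hmgcs1 at 816 against 553. Lower were Fdps at 1237 against 1820, Sqle at 338 against 436, Fdft1 at 278 against 363 and Srebf2 at 203 against 261. Insig2 read 795 against 483 on its brightest probe set and 512 against 215 on another. Among glycerolipid genes Dgat1 read 311 against 504, Dgat2 2439 against 2220 and Gpam 554 against 555.

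**Figure D4:**
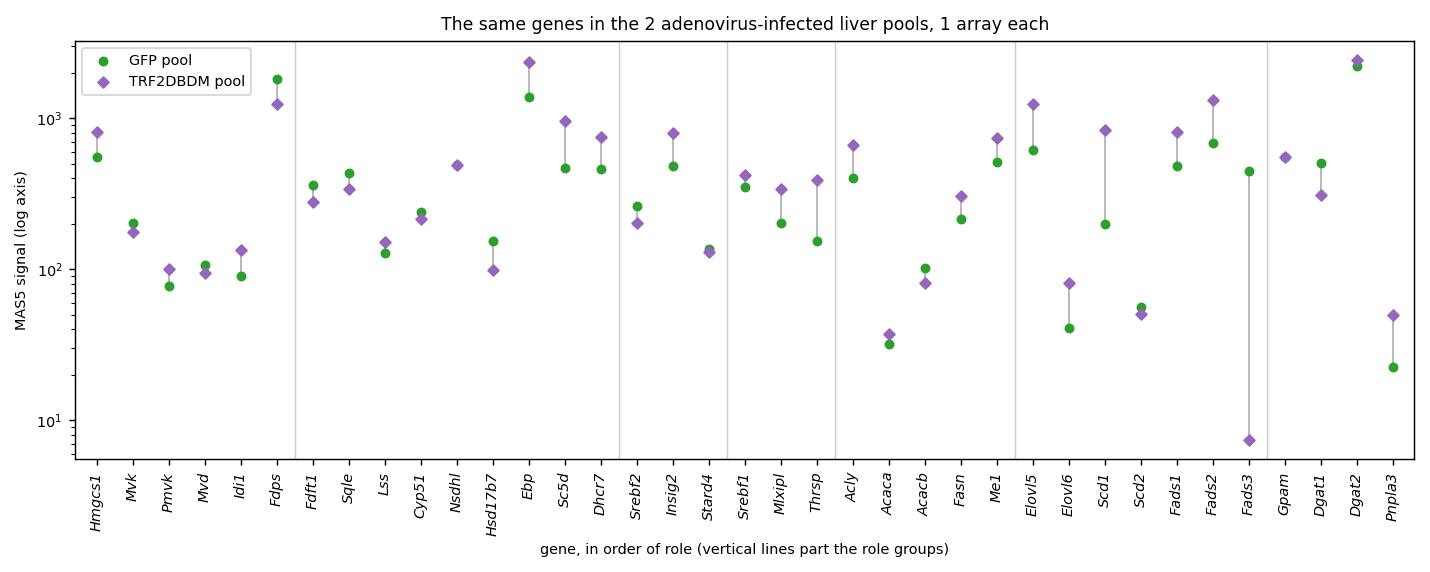
MAS5 signal (log axis) of 37 of the genes in the liver pools infected with Ad TRF2DBDM (purple diamonds) and Ad GFP (green circles), 1 array each, joined by a line, in order of role. Fads3, at 7.4 against 444, and Scd1, at 838 against 199, have the longest lines, in opposite directions.

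Cell type markers differed between the same 2 arrays. All 7 hepatocyte markers read higher with TRF2DBDM, with log2 ratios from 0.07 for Fgb to 1.81 for Cps1, a median of 0.65 and summed signals of 55011 against 39422. All 5 proliferation genes read lower, with a median of -0.47, and 5 of 7 macrophage markers read higher, with a median of 0.72. Of the adipocyte markers, Adipoq read 14.3 against 28.1, Lep 7.4 against 9.7 and Retn 48.9 against 24.7, under the array medians of 52.5 and 46.1. Above them, Pck1 read 722.6 against 541.8, Lipe 69.7 against 62.3 and Cidec 70.4 against 130.3. The part of these differences in the lipid genes was not tested.

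Related genes off the list gave few wide ratios. Slc2a2, the hepatocyte glucose transporter, read 840 with TRF2DBDM and 254 with GFP, and Khk, which phosphorylates fructose, 1532 against 486. Lpin1, a phosphatidate phosphatase, read 229 against 52.3 and Cd36, a fatty acid transporter, 262 against 107. Npc2 read 841 against 2173, the only gene of the further sterol list at least 2-fold apart. Of 9 LXR genes 7 were higher, with a median of 0.46.

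Tumours and infected livers were compared only by rank within each array, over the probe sets that both array types hold. Each gene, member or not, was read by its probe set brightest in the tumours, a choice that can favour the tumours. In 14 of 36 members (38.9%) all 6 tumours ranked above both livers, against 14% of 10090 genes, and in 1 member, Dgat2, all 6 ranked below, against 14.5%. The 14 held 4 of 6 mevalonate genes (Hmgcs1, Pmvk, Mvd and Idi1) and 4 of 9 squalene and sterol genes (Sqle, Fdft1, Cyp51 and Hsd17b7). The others were Insig2, Stard4, Fasn, Scd1, Scd2 and Elovl6. Scd1 stood at percentiles 99.2 to 99.9 in tumours, at 94.6 with TRF2DBDM and at 79.2 with GFP. Scd2 stood at 93.0 to 96.6 in tumours, and at 49.3 and 54.4 in the livers. Mvd stood at 72.7 to 78.2, and at 57.5 and 59.2. For Mvd, Fdft1, Insig2 and Elovl6 another probe set was brighter in the livers, and its rank was not compared. That of Mvd read 102.3 to 377.6 in the tumours, 94.5 with TRF2DBDM and 107.6 with GFP. The count of 14 may thus depend on the probe set chosen. Fads1, Fads2, Thrsp, Srebf1 and Mlxipl overlapped between tumours and livers. Tumour and liver, HBs transgene, age, virus, pooling and array type change together in this comparison and cannot be told apart, and the 2 tables were scaled separately. Xist also differed, at 3607 and 2308 in the livers and 9.6 to 920.5 in the tumours. The sex of the animals is not labelled, and its part was not tested.

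**Figure D5:**
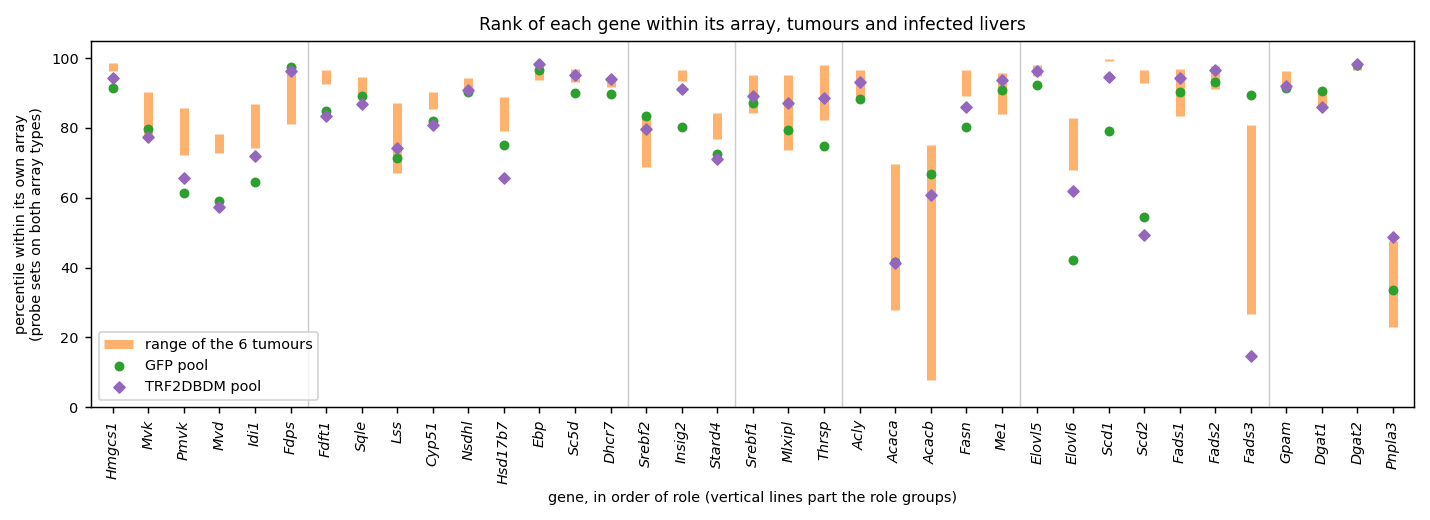
Percentile of each of 37 genes within its own array, over probe sets on both array types, as the range of the 6 tumours (orange bars) and the liver pools infected with Ad GFP (green circles) and Ad TRF2DBDM (purple diamonds). For Scd1, Scd2 and Mvd both liver symbols lie below the bar, and for Fads3 they lie above it and below it.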

How the data were processed

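Per the submitters' processing notes, the deposited values are MAS5 signal intensities on a linear scale, scaled per array by the authors; no version or settings of MAS5 are given in these sources. Per the labels, biotinylated cRNA was made from 6 µg of total RNA. Probe sets were named by the platform annotation: 34958 of 45101 tumour probe sets had 1 symbol, 932 several and 9211 none, and only the first kind was used (20393, 691 and 1606 of 22690 on the liver arrays).

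A gene was its probe set with the highest mean. Genes at or above the median level were tested on log2(signal + 32) with limma 3.58.1 in R 4.3.3 (lmFit, eBayes with trend), two-sided, with Benjamini-Hochberg adjustment over all genes and a threshold of 0.05. The 2 liver arrays gave ratios only. The code was tested on simulated data. Members and lists were chosen with earlier results of these data known. Members were named where groups did not overlap, or where the unadjusted p (limma) was below 0.05. They were also named where the liver ratio reached 2-fold, or where they had the largest difference of their role. Others are given by level. Hmgcs1 and Fads2 met none of these rules, but their tumour differences are given too, as are those of some members whose probe sets disagreed. Replicates are separate tumours; their numbers follow accession order and pair nothing. Alternatives varied scaling, pseudocount, filter, probe set rule, variance model, array weights, Y-linked and 18S levels, and left out each tumour. The number of arrays limits the precision.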

Additional observations from a re-analysis of the deposited data

How the results depend on the processing

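No member was called under any alternative, and Scd1 kept a lower mean in mTERC- tumours in all 18 tumour alternatives (-1.03 to -0.77). Over all genes the 1 call was lost under median centring, a pseudocount of 1, a filter at percentile 75, the mean of probe sets, probe sets on both arrays, no variance trend, the Y-linked covariate and the 18S block (0 genes each), and leaving out 1 tumour gave 0 to 6 calls. Sc5d reversed to 0.055 with averaged probe sets, and Mlxipl to -0.76 with the 18S block and to -0.22 without mTERC- tumour 3 (range -0.22 to 1.17 on leaving out 1 tumour). With the 18S block only mTERC- tumour 1 is set against mTERC+ tumours, by construction. The cause of the other changes was not tested. With averaged probe sets the differences of Acacb and Fads1 were both -0.68 and that of Dgat1 -0.21, and with the Y-linked covariate that of Acacb was -0.69, of Fads1 -1.66 and of Fdps -1.64. Median differences moved as follows. The glycerolipid median was -0.11 with the larger pseudocount and -0.11 with the percentile 75 filter. With averaged probe sets the squalene and sterol median was 0.055 and that of sterol regulators -0.035. With the Y-linked covariate the medians were -0.18 for mevalonate, -0.35 for squalene and sterol and -0.37 for fatty acid synthesis. With the 18S block they were -0.76 for lipogenic regulators and -0.10 for elongases and desaturases. Leaving out 1 tumour gave medians of -0.30 to 0.014 for all members, -0.46 to -0.17 for mevalonate, -0.38 to 0.0067 for squalene and sterol, -0.01 to 0.20 for sterol regulators, -0.22 to 0.73 for lipogenic regulators, -0.32 to 0.13 for fatty acid synthesis, -0.69 to -0.077 for elongases and desaturases, and -0.11 to 0.11 for glycerolipid genes. Members lower without overlap then numbered 7 to 11, but smaller groups separate more easily, and the share of all genes lower without overlap was then 8.35% to 10%, against 4.39% with all tumours. Members higher without overlap numbered 0 to 4. The 4 arose without mTERC+ tumour 2, where 2288 of 11980 genes did not overlap in either direction, with 8.51% of genes lower. Members with a lower mean numbered 17 to 29, and those with an unadjusted p below 0.05 (limma) 1 to 7. The shares of all genes beside those last counts were not taken. In the livers, where the share of all genes at least 2-fold higher was itself 4.31% with quantile normalization, 8.71% with a pseudocount of 1, 2.12% with the larger one, 4.35% with averaged and 4.11% with every probe set, members at least 2-fold higher numbered 4 with quantile normalization, 4 with a pseudocount of 1, 1 with the larger pseudocount, 1 when averaging probe sets and 4 with every probe set, and those at least 2-fold lower numbered 2 with every probe set. The elongase and desaturase median was 0.94 with a pseudocount of 1 and 0.91 with the percentile 75 filter, under which the medians were 0.47 for all members, -0.17 for mevalonate and 0.18 for sterol regulators. Median centring moved the median of all liver genes from 0.02 to -0.09. No paired analysis was possible because the labels give no replicate numbers that tie tumours together and the livers are 1 array each. With 3 tumours a group and 1 pooled array a virus, differences of the size seen here could not be told from the spread between tumours, and low signals such as those of Pnpla3 and Acacb are imprecise.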

Other observations

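Further genes among those with the smallest unadjusted p-values (limma) of the other pathway lists are given here. Fabp4, a fatty acid binding protein of adipocytes, macrophages and endothelium, read 717, 177 and 918 in mTERC+ tumours and 693, 2419 and 1268 in mTERC- tumours, a difference of 1.32 ± 0.54 (limma, unadjusted p = 0.028, adjusted p = 0.953). The groups overlapped through mTERC- tumour 1. Of the adipocyte markers, Adipoq read 5.8 to 55.7 over the tumours, Lipe 16.9 to 197.4, Cidec 21.8 to 196.7 and Pck1 101.6 to 754.9. The part of adipocytes in the Fabp4 values was not tested. Fitm1, a droplet protein best known from muscle, read 849, 189 and 1080 against 55.1, 145 and 385, a difference of -1.69 ± 0.61 (limma, unadjusted p = 0.015, adjusted p = 0.953). Slc2a2, the hepatocyte glucose transporter, read 1151, 992 and 837 against 1214, 1235 and 2203, with every mTERC- tumour higher and a difference of 0.58 ± 0.35 (limma, adjusted p = 0.953). Acsl5, an acyl-CoA synthetase, read 2840, 5639 and 7764 against 3612, 2762 and 3193, and the groups overlapped.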
